A study of Mus musculus with 18 samples.

Results

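The comparison described here set RNA recovered from whole cell lysates of Neuro2A (N2A) cells that had received a scrambled mimic (Scr) against RNA from whole cell lysates of cells that had not been transfected (control). It took 6 of the 18 samples of the series, 3 whole cell Scr samples and 3 whole cell control samples, placed in their groups by the labels. N2A is a mouse neuroblastoma cell line, labelled wild type in all groups. The Scr samples were labelled scramble overexpression and came from cells given 25 nM of a biotinylated scrambled mimic, with lysis 48 h later and capture on streptavidin beads. The control samples were labelled control, and the labels do not say whether their lysates also passed over the beads, so the mimic, the transfection reagent and, possibly, the capture step cannot be told apart as sources of a difference. The other 12 samples were nuclear lysates of the same 2 kinds and nuclear and whole cell lysates of cells given a biotinylated miR-92b mimic, and they entered as reference values. RNA was selected on oligo-dT and sequenced from strand-marked libraries. All 3 samples of a group came from 1 cell line, and the labels do not say that they were separate cultures. The study's supplement describes its check of the pulldown on samples from 3 experiments, which included scrambled and untransfected cultures. It does not state whether the sequenced control lysates were treated in the same way. For the sequencing the supplement gives 3 samples per group.

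A microRNA mimic is a short duplex whose guide strand is loaded into an Argonaute protein. Argonaute, with a TNRC6 scaffold protein, then binds transcripts that pair with the guide and recruits deadenylation and decapping enzymes. When the mimic carries biotin, streptavidin beads retain it together with what is bound to it, and also transcripts that stick to the beads or to the biotinylated proteins of the cell, chiefly the carboxylases that use biotin as a cofactor. A scrambled mimic is designed to lack matching targets and serves as the reference for such background and for responses to introduced duplex RNA, which cells can sense through cytosolic receptors that induce interferon-stimulated genes.

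The files list 168136 loci, of which 52179 carry a gene symbol. Of these, 23569 had a read in at least 1 of the 6 samples, and 15579 had a mean of at least 10 normalized counts over the 18 samples and were tested. A normalized count is the number of reads divided by the size factor of the library, so that libraries of different depth share a scale. Reads on loci with a symbol numbered 6634894, 5769804 and 22920038 in Scr samples 1, 2 and 3 and 5073238, 6814820 and 7772587 in control samples 1, 2 and 3.

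The Scr samples were less alike than the control samples. Over the 10571 loci with a mean of at least 50, the median absolute log2 difference between a pair of libraries was 0.386 to 0.456 within Scr, 0.297 to 0.315 within control, and 0.351 to 0.450 between the groups, so pairs across groups differed about as much as pairs of Scr samples. On the first principal component of the 6 samples, with 35.9% of the variance, Scr sample 1 scored 185 and the other 5 samples between -38.6 and -35.0, and on the second, with 22.4%, Scr sample 3 scored 142 and the others between -45.1 and 0.523. Neither component separated the groups by a two-sided exact permutation test of the difference of mean scores, with p = 1.0 and p = 0.2, where 3 against 3 cannot go below 0.1. Tested loci without a read made up 12.9%, 5.89% and 7.63% in Scr samples 1, 2 and 3 and 5.80%, 4.35% and 2.41% in control, although Scr sample 3 was the deepest library. Scr sample 1 listed 153 loci with a mean of at least 50 at 0 reads, against 17 and 50 in the other 2 Scr samples and 9, 13 and 0 in the control samples. A low level in a single Scr library was common at loci of low abundance.

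**Figure D1:**
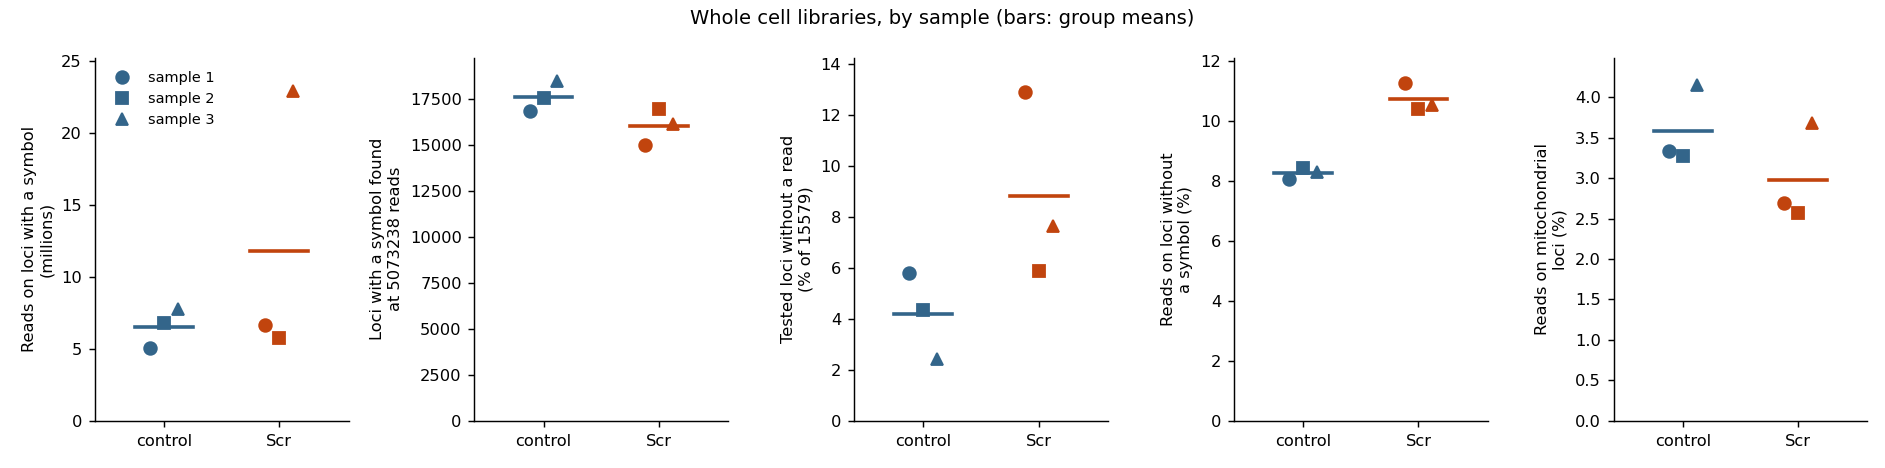
Properties of the 3 whole cell Scr and 3 whole cell control libraries, with 1 point per sample and lines at the group means. From left to right the vertical axes give reads on loci with a symbol, loci found at 5073238 reads, tested loci without a read (percent), reads on loci without a symbol (percent) and reads on mitochondrial loci (percent), and the groups do not overlap in the third and the fourth, where Scr lies higher.

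The number of loci found after each library was thinned to 5073238 reads was 14986, 16970 and 16164 in Scr and 16854, 17525 and 18452 in control. The means were 16040 ± 998 (SD, n = 3) and 17610 ± 802 (SD, n = 3), the ranges overlapped, and the exact permutation p was 0.2. Loci without a symbol, which lie outside the annotation or could not be assigned to it, took 11.3%, 10.4% and 10.5% of reads in Scr samples and 8.06%, 8.45% and 8.29% in control samples. That share was higher in all 3 Scr samples, by 2.47 percentage points, with an exact permutation p of 0.1, the smallest the design allows, and an adjusted p of 0.3 over 3 shares. Reads on mitochondrial loci made up 2.69%, 2.57% and 3.69% in Scr and 3.34%, 3.27% and 4.15% in control (exact permutation p = 0.3, adjusted p = 0.45), and the 10 most-read loci took 7.23% to 8.69% and 7.86% to 8.99% (exact permutation p = 0.7, adjusted p = 0.7). The ranges of both overlapped between the groups.

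Both groups carried the transcripts of a sympathetic neuroblast. The peripheral neuron intermediate filament Prph was at 3351, 3247 and 3967 normalized counts in Scr and 3779, 3872 and 4108 in control, and the transcription factor Hand2 was at 1039.8, 1142 and 859.8 in Scr and 1164, 1134 and 1170.1 in control. Of 16 loci of the neuroblast list, 15 were tested and 1 was at 0 in all 6 samples. The summed level of the list ran from 10180 to 11801 in Scr and from 11438 to 11896 in control. Fibroblast markers had no tested locus, with 4 of 8 loci at 0 in all 6 samples, Dcn, Lum and Col3a1 among them, and summed levels of at most 1.01 in Scr and 15.6 in control. Macrophage markers likewise had no tested locus, with Cd68, Adgre1, Aif1 and Tyrobp at 0, and summed levels of 0 to 46.5 in Scr and 3.90 to 11.2 in control, mainly from Csf1r. Of 6 glial loci, 3 were tested, Olig2 and Aqp4 were at 0, and summed levels were 85.0 to 275 in Scr and 175 to 309 in control. Of 5 endothelial loci 2 were tested, Kdr, Cdh5 and Tie1 were at 0, and summed levels were 12.6 to 64.0 in Scr and 37.4 to 44.1 in control. In bulk samples, fewer cells of a type and less RNA per cell cannot be told apart.

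The central question was which named transcripts a scrambled mimic pulldown held more or less of than untransfected cells. No locus passed the threshold. By limma's moderated test with a variance trend on log2 values, 0 of 15579 loci (0.0%) had an adjusted p below 0.05, and the smallest adjusted p was 0.957. At an unadjusted p below 0.05 there were 793 loci, 5.09% of those tested, of which 220 were higher and 573 lower in Scr. edgeR on the recovered reads also called 0 loci (0.0%), with 619 at an unadjusted p below 0.05. DESeq2 called 37 of 15561 loci (0.238%), 3 higher and 34 lower in Scr, which are described further on.

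The range of values in Scr and in control did not overlap at 2101 loci, 13.5% of those tested. Of these, 900 (5.78%) were higher in all 3 Scr samples than in any control sample and 1201 (7.71%) were lower. This split depended on scaling, with 1141 higher and 1004 lower when the medians of all libraries were set equal and 1070 higher and 1043 lower after quantile normalization. The 55 loci at 0 reads in all 3 Scr samples and no control sample are part of the lower side, and 6 loci showed the reverse. Among the 12113 loci with a read in each of the 6 samples, 810 were higher and 921 lower.

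The precision of these values rested on abundance, and the intervals use the spread within the 6 groups of all 18 samples. For loci with a mean of 10 to 50 normalized counts, the 95% interval of the log2 difference was taken at the median standard error. It reached 3.10 to either side of the estimate, a factor of 8.59. At a locus with that standard error, only differences beyond this could be seen before adjustment, and loci with a smaller one had narrower intervals. The factor was 2.48 at means of 50 to 200, 1.52 at 200 to 1000 and 1.33 at 1000 and above. The median log2 difference moved with abundance too, from -0.40 at 5008 loci in the lowest range, through -0.14 at 4724 loci and -0.05 at 4552 loci, to 0.05 at the 1295 most abundant loci. In that last range 199 loci (15.4%) were higher and 94 (7.26%) lower in all 3 Scr samples.

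**Figure D2:**
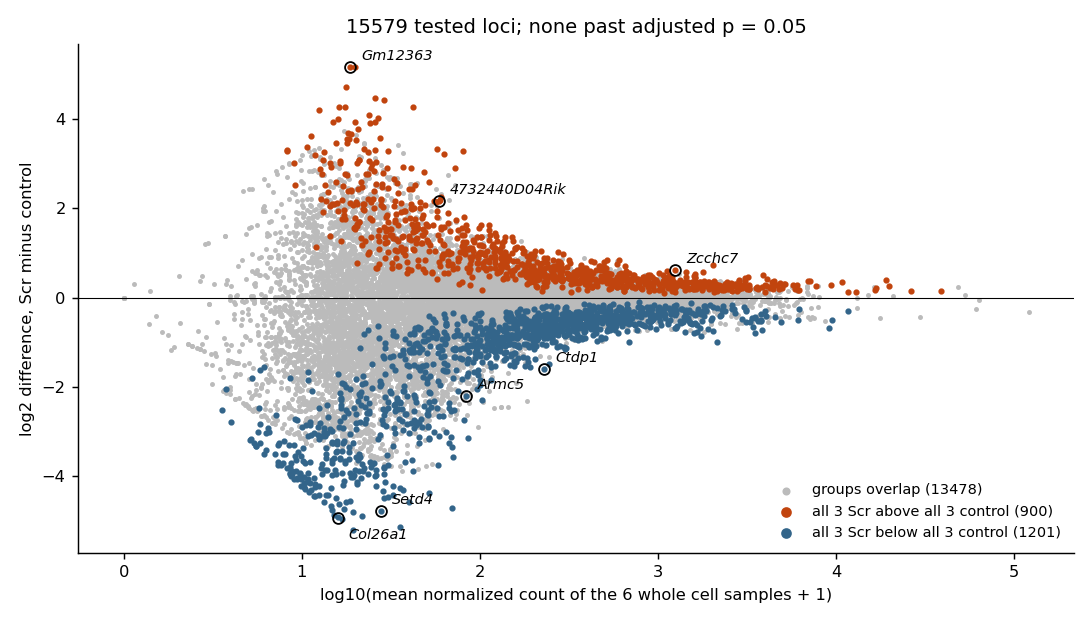
Log2 difference between whole cell Scr and control (vertical axis) against the log10 mean normalized count of the 6 samples (horizontal axis) for the 15579 tested loci. Grey points are loci whose groups overlap, red the 900 higher and blue the 1201 lower in all 3 Scr samples, circles mark loci described in the text, and the cloud narrows from left to right.

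Of the loci with groups that did not overlap, the 12 per direction with the smallest unadjusted p were taken first, and none of the 24 passed the threshold (limma adjusted p = 0.957 for each). Those that were lower in Scr were mostly scarce transcripts that were present in all control samples and missing from 1 or more Scr samples. Setd4, which encodes a SET domain methyltransferase (chr16:93583457-93604063, GRCm38/mm10), was at 0, 6.08 and 0 normalized counts in Scr and 48.2, 57.9 and 48.3 in control. All control samples lay above all Scr samples, and the log2 difference was -4.77 with a standard error (SE) of 1.07. Col26a1, a collagen chain gene (chr5:136741759-136883209), was at 0 in all 3 Scr samples and at 35.3, 21.6 and 32.7 in control. Against a floor of 3 reads per library it was at least 13.9-fold lower in Scr. The zinc finger gene Zfp51 was at 0 in Scr and at 40.0, 16.4 and 25.7 in control, at least 12.7-fold lower. Tmem238, a small membrane protein gene, was at 0 in Scr and at 25.9, 49.3 and 35.1 in control, at least 17.1-fold lower. Floors of this kind cover counting error only.

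Other loci on the lower side kept reads in the Scr samples. Armc5, an armadillo repeat protein gene (chr7:128234458-128245127), was at 33.3, 39.5 and 16.5 in Scr and 102, 187 and 120.0 in control, a log2 difference of -2.20 with an SE of 0.56. Zranb3, which encodes a DNA annealing helicase, was at 26.3, 87.1 and 30.6 in Scr and 142, 163 and 149.7 in control, a log2 difference of -1.85 with an SE of 0.48. Ctdp1, the phosphatase of the RNA polymerase II tail, was at 34.2, 192 and 176 in Scr and 399.8, 306 and 267 in control, a log2 difference of -1.59 with an SE of 0.42. For Ctdp1 the low value of Scr sample 1 carried most of the distance, and the other 2 Scr samples lay nearer to control. The processed pseudogene Gm28381, whose reads may be shared with its parent gene, was at 25.4, 31.4 and 67.0 in Scr and 216, 147 and 106 in control.

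The remaining 4 loci on the lower side had a 0 in at least 1 Scr sample. Tbc1d10a, a GTPase-activating protein for Rab proteins, was at 0, 0 and 13.4 in Scr and 85.8, 22.5 and 67.0 in control. The locus 1500017E21Rik was at 5.26, 54.7 and 0 against 116, 80.4 and 85.0. The long intergenic RNAs 1300002E11Rik (0, 10.1 and 0 against 45.9, 94.2 and 25.7) and 2810425M01Rik (0, 12.2 and 0 against 78.8, 49.3 and 24.9) showed the same form. In 3 of these 4, Scr sample 2 was the Scr sample with the most reads, and it had the fewest loci at 0 in its group.

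Those that were higher in Scr included abundant transcripts with small differences in normalized counts. Zcchc7, a zinc knuckle protein of the nuclear RNA surveillance machinery (chr4:44755877-44933338), was at 1726, 1511 and 1296 in Scr and 1018, 923 and 1006 in control, and its log2 difference was 0.61 with a 95% interval of 0.26 to 0.96. Macf1, which crosslinks microtubules and actin, was at 1789, 1421 and 1939.6 in Scr and 1148, 1297 and 997 in control, a log2 difference of 0.58 with an interval of 0.22 to 0.93. In these genes every Scr sample lay above every control sample, and the group means differed by a factor of at most 1.54.

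Noncoding loci and joined loci were the other main kind on the higher side. The long intergenic RNA 5031425E22Rik was at 3072, 2425 and 2121 in Scr and 1391, 1493 and 1641 in control, a log2 difference of 0.74 with an SE of 0.23. Its groups overlapped on the deposited FPKM values, at 35.2, 18.5 and 15.6 against 15.6, 13.3 and 16.1. The locus joining Gm5141 and Platr25 was at 379, 408 and 378 in Scr and 186, 183 and 224 in control, a log2 difference of 0.98 with an interval of 0.41 to 1.55, in a region that holds 97 loci. The division of reads among those loci was not tested. Gm26348, a small noncoding RNA gene, was at 214, 151 and 126 against 65.9, 43.2 and 74.1. The antisense RNA 4732440D04Rik was at 147, 50.6 and 91.1 against 18.8, 16.4 and 21.8, a log2 difference of 2.16 with an SE of 0.62, and a second antisense RNA, 1810034E14Rik, was at 73.6, 31.4 and 32.0 against 0, 0 and 17.9.

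The scarce loci on the higher side were read mainly or solely in Scr. Gm12363, a processed pseudogene in a region it shares with 2 other loci including Zfp292, was at 40.3, 39.5 and 26.2 in Scr and 0 in all 3 control samples, at least 12.5-fold higher. Gm44188 was at 44.7, 18.2 and 50.3 in Scr and 0 in control at 1 of its loci, at least 13.4-fold higher, while another locus with that symbol in the same region was at 0.877, 0 and 0 in Scr and 24.7, 8.65 and 24.9 in control. The region holds 43 loci, so how reads were divided among them decides both values, and the symbol as a whole has no single direction. Slc25a18, a mitochondrial glutamate carrier, was at 62.2, 29.4 and 52.4 against 0, 3.46 and 12.5, and Nxpe4, of the neurexophilin-related family, was at 159, 66.8 and 158 against 0, 26.8 and 65.5.

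**Figure D3:**
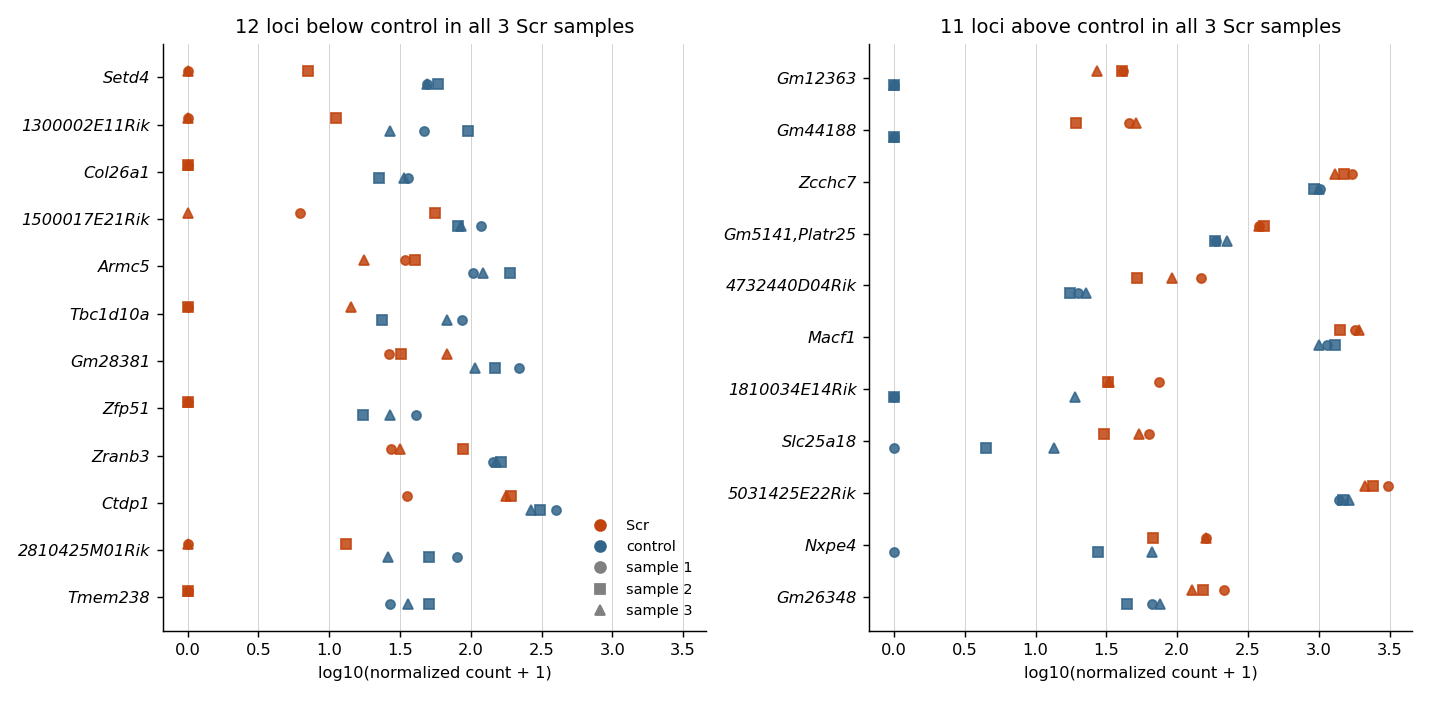
Levels of 12 lower and 11 higher loci with the smallest unadjusted p among those whose groups do not overlap, as log10(normalized count + 1), with 1 point for each of the 3 Scr (red) and 3 control (blue) samples. Loci that were lower in Scr have Scr points at or near 0 in most cases, while Zcchc7, Macf1 and 5031425E22Rik lie near or above 1000 normalized counts in both groups.

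The 37 loci that DESeq2 called had the same form as the scarce loci above. Of the 34 lower calls, 22 were at 0 in all 3 Scr samples, and of the 3 higher calls 2 were at 0 in all 3 control samples. In 35 of the 37 at least 1 of the 6 samples had no read, and the only calls with reads in all 6 were Armc5 and 4732440D04Rik. Other lower calls, named after their values were seen, included the transcription factors Runx2, Relb, Tlx3, Scrt2 and Egr2 and the coagulation factor gene F5. Egr2 shows how few reads lay behind some of these calls, at 0 in all Scr samples and at 57.6, 0 and 17.1 in control. limma and edgeR called none of the 37.

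Gene lists were then read by their members' counts and medians, beside the same for all tested loci, where the median log2 difference was -0.09 and 42.7% lay above 0. No member of any list passed limma's threshold. The first group of lists covered what introduced duplex RNA can engage. Sensors of double-stranded RNA and their adaptors had 12 of 23 loci tested, 6 above and 6 below 0, with a median of -0.01, and 6 loci at 0 in all 6 samples. The RNA editing enzyme Adar was at 1472, 1257 and 1310.0 in Scr and 1148, 1115 and 1191 in control, a log2 difference of 0.22 with an interval of -0.21 to 0.65, which turned to -0.53 on the deposited FPKM values. The protein kinase gene Eif2ak2, which responds to double-stranded RNA and was named after its values were seen, was at 162, 117 and 186 against 156, 95.1 and 98.2, and the receptor gene Ddx58 (RIG-I), likewise named, was at 0, 43.5 and 0 against 17.6, 5.19 and 0. The groups overlapped for Eif2ak2 and Ddx58, and for Adar every Scr sample was above every control sample in normalized counts. Without overlap, 1 of the 12 sensor loci was higher, Adar, and 1 lower (8.33% each, against 5.78% and 7.71% of all loci). The lower one was Dhx58 (LGP2), named after its values were seen, at 0, 11.1 and 0 against 12.9, 34.6 and 30.4. Its log2 difference of -3.44 had an interval of -6.82 to -0.06.

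Interferon-stimulated genes, the targets of that pathway, had 19 of 47 loci tested, with 9 above and 10 below 0 and a median of -0.12. At 8 loci all 6 samples were at 0. Of the 19, 0 (against 5.78% of all loci) were higher and 1 (5.26%, against 7.71%) was lower without overlap. The most-read member, the histocompatibility gene H2-D1, was at 383, 375 and 302 in Scr and 393, 484 and 338 in control, a log2 difference of -0.19 with an interval of -0.94 to 0.56 that turned to 0.07 on the deposited FPKM values. Ifi27 was at 394, 227 and 316 in Scr and 276, 173 and 259 in control, and its log2 difference of 0.40 had an interval of -0.20 to 0.99. None of the 19 had an unadjusted p below 0.05. For H2-D1 and Ifi27 the groups overlapped.

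The genes of the silencing machinery were measured at high depth. The locus joining Ago2, an Argonaute, and its neighbour Ptk2 was at 5224, 5144 and 4969.7 in Scr and 5372, 5115 and 5420.1 in control, and its log2 difference of -0.05 had an interval of -0.36 to 0.25. Argonaute and TNRC6 genes had 7 loci, 4 above and 3 below 0, with a median of 0.05. Of these, 2 (28.6%, against 5.78% of all loci) were higher and 0 (against 7.71%) lower without overlap. The list's median log2 level was 10.2 to 10.4 in the 6 samples, and of all loci with a mean of at least 1000, 15.4% were higher. MicroRNA processing and export genes had 14 loci, 8 above and 6 below 0, with a median of 0.12. Xpo1, the nuclear export receptor, was at 3099, 3206 and 2731 in Scr and 2455, 2496 and 2309.7 in control, higher in all 3 Scr samples, with a log2 difference of 0.31 and an interval of -0.04 to 0.67. Deadenylation and decapping genes had 25 tested loci, 11 above and 14 below 0, with a median of -0.05, and their scaffold Cnot1 was at 3243, 2994 and 2868 against 2681, 2760.0 and 2555. Host loci of microRNA genes had 221 of 1118 tested, 104 above and 117 below 0, with a median of -0.03, 16 (7.24%, against 5.78% of all loci) higher and 26 (11.8%, against 7.71%) lower without overlap.

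Genes for biotin-using enzymes and biotin handling had 10 of 11 loci tested, 5 above and 5 below 0, with a median of 0.02. Acaca, the carboxylase of fatty acid synthesis and one of the most-read loci of the libraries, was at 37789, 101787 and 51308 in Scr and 51837, 83219 and 52152 in control. Sample 2 of each group was the high one, the groups overlapped, and the log2 difference of -0.06 had an interval of -0.91 to 0.78. Pccb, a subunit of propionyl-CoA carboxylase named after its values were seen, was at 0, 17.2 and 0 against 44.7, 36.3 and 37.4.

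Most lists tied to uptake and stress sat below the median of all loci. Endocytosis and lysosome genes had 32 tested loci, 6 above and 26 below 0, with a median of -0.28, and 6 (18.8%, against 7.71% of all loci) were lower and 0 (against 5.78%) higher in all 3 Scr samples. The lysosomal membrane protein Lamp1 was at 3017, 2561 and 3185 in Scr and 3342, 2991 and 3799 in control. Ap2m1, a subunit of the clathrin adaptor named after its values were seen, was at 907, 970.1 and 859 against 1493, 1429 and 1197, a log2 difference of -0.59 with an interval of -1.01 to -0.16. Unfolded protein response and endoplasmic reticulum chaperone genes had 29 of 34 loci tested, 4 above and 25 below 0, with a median of -0.24, and 8 (27.6%, against 7.71% of all loci) were lower and 0 higher without overlap. The chaperone Canx was at 2058, 2528 and 3405 against 4581, 4129 and 3671, a log2 difference of -0.66 with an interval of -1.16 to -0.15. Creld2, also of this list and, like Hyou1, named after its values were seen, was at 40.3, 139.7 and 115 against 268, 170.3 and 242, a log2 difference of -1.35 with an SE of 0.42. Hyou1 was at 1128, 1297 and 1066 against 1678, 1556 and 1684, a log2 difference of -0.50 with an SE of 0.20. For Canx, Creld2 and Hyou1 every Scr sample lay below every control sample.

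Cholesterol synthesis and uptake genes had 22 tested loci with a median of -0.20, 5 above and 17 below 0. Of these, 4 (18.2%, against 7.71% of all loci) were lower and 0 higher without overlap. Heat shock protein genes (15 loci, median -0.15), p53 targets (16 loci, median -0.13), antioxidant and NRF2 targets (17 loci, median -0.19) and immediate early genes (21 loci, median 0.02) had at most 3 loci in either direction without overlap. Cell cycle and proliferation genes had 29 tested loci, 6 above and 23 below 0, with a median of -0.16, and 2 (6.90%, against 7.71% of all loci) were lower and 0 higher without overlap.

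Among lists with at least 10 tested loci, those furthest below the median of all loci were the histones, the complex I subunits and the cytosolic ribosomal proteins. Cytosolic ribosomal protein genes had 85 of 90 loci tested, 3 above and 82 below 0, with a median log2 difference of -0.45, which ran from -0.61 to -0.35 over the alternative settings. Of the 85, 23 (27.1%, against 7.71% of all loci) were lower and 0 (against 5.78%) higher in all 3 Scr samples. Rplp0, of the ribosomal stalk, was at 6496, 5655 and 9573 normalized counts in Scr and 10414, 8286 and 11859 in control, and the ranges overlapped through Scr sample 3. Its log2 difference of -0.51 had an interval of -1.49 to 0.46. Rpl28, named after its values were seen, was at 1133, 1236 and 1359 against 2041, 2084 and 2640.3, a log2 difference of -0.85 with an interval of -1.62 to -0.09.

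Translation factors had 35 loci, 6 above and 29 below 0, with a median of -0.31, and 13 (37.1%, against 7.71% of all loci) were lower and 0 (against 5.78%) higher without overlap. The elongation factor Eef2 was at 14157, 12299 and 18288 in Scr and 20353, 16733 and 24046 in control, where only Scr sample 3 reached into the control range. Mitochondrial ribosomal protein genes had 78 tested loci with a median of -0.40, 18 (23.1%) lower and 2 (2.56%) higher without overlap, and nuclear-encoded complex I subunits had 37 with a median of -0.49, 10 (27.0%) lower and 0 higher, against the same 7.71% and 5.78%. Of 12 loci of the mitochondrial genome, 7 were at 0 in all 6 samples and 4 were tested, all below 0 with a median of -0.29 and none without overlap. Glycolytic enzymes had 22 loci with a median of -0.24, 7 (31.8%) lower and 2 (9.09%) higher, and proteasome subunits had 36 with a median of -0.25, 6 (16.7%) lower and 1 (2.78%) higher.

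Replication-dependent histone genes had 55 of 66 loci tested with a median of -0.51, 9 above and 46 below 0, and 14 (25.5%, against 7.71% of all loci) were lower and 0 (against 5.78%) higher without overlap. Most of their transcripts end in a stem-loop and not in a poly(A) tail, so oligo-dT selection recovers them in part. Tubulin and cytoskeleton genes had 17 tested loci, 1 above and 16 below 0, with a median of -0.41, and 7 (41.2%) were lower and 0 higher without overlap. Tubb5, a beta-tubulin, was at 5051, 5537 and 7110.2 in Scr and 7711, 6682 and 9399.5 in control. Small nucleolar and Cajal body RNA genes had 67 of 124 loci tested with a median of -0.32, 14 (20.9%) lower and 1 (1.49%) higher. Of the 67, 64 carried more than 1 symbol, such as the locus of the chaperone Hspa8 and its Snord14 genes, so that in oligo-dT libraries the host transcript is counted with them. The protein genes of the nucleolus and of these particles had 23 loci with a median of -0.12, and 1 (4.35%) was lower and 0 higher.

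The list of nuclear-retained long noncoding RNAs had 19 of 28 loci tested, 11 above and 8 below 0. Its median log2 difference was 0.20, and 0.03 to 0.25 over the alternative settings, and 3 (15.8%, against 5.78% of all loci) were higher and 1 (5.26%, against 7.71%) lower without overlap. Malat1, the abundant RNA of nuclear speckles, was at 50238, 47232 and 58387 normalized counts in Scr and 43528, 38046 and 51493 in control. Its groups overlapped, and the log2 difference of 0.23 had an interval of -0.34 to 0.81. The locus of Neat1, the scaffold of paraspeckles, was at 17026, 15032 and 20694 against 15164, 12582 and 17141, with an interval of -0.28 to 0.74. Kcnq1ot1, an imprinted antisense RNA named after its values were seen, was at 6423, 6485 and 6065 against 5127, 4973 and 5413, above control in all 3 Scr samples. The locus of the imprinted Meg3, also named after its values were seen, went the other way, at 0, 62.8 and 9.17 against 71.7, 89.9 and 70.2.

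Splicing factors had 33 loci, 15 above and 18 below 0, with a median of -0.00. Of these, 5 (15.2%, against 5.78% of all loci) were higher and 1 (3.03%, against 7.71%) lower without overlap. The list's median log2 level was 10.3 to 10.6 in the 6 samples. Among all loci with a mean of at least 1000, 15.4% were higher, near the share of this list, and 7.26% lower. Zinc finger genes with a Zfp symbol had 309 tested loci, 147 above and 162 below 0, with a median of -0.02. Of the 309, 20 (6.47%) were higher and 20 (6.47%) lower, against the same shares. Hnrnph1, a splicing regulator, was at 3615, 3887 and 3998 in Scr and 3455, 3223 and 3236 in control. Among neuroblast markers 3 loci were above and 12 below 0, with a median of -0.18. Mycn, the transcription factor gene amplified in many neuroblastomas and named after its values were seen, was at 124, 111 and 78.3 in Scr and 221, 208 and 226 in control. Every Scr sample lay below every control sample, with a log2 difference of -1.08 and an interval of -1.86 to -0.29. The 3 tested glial loci had a median of -1.58 and the 2 endothelial loci -0.47, both at low levels.

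**Figure D4:**
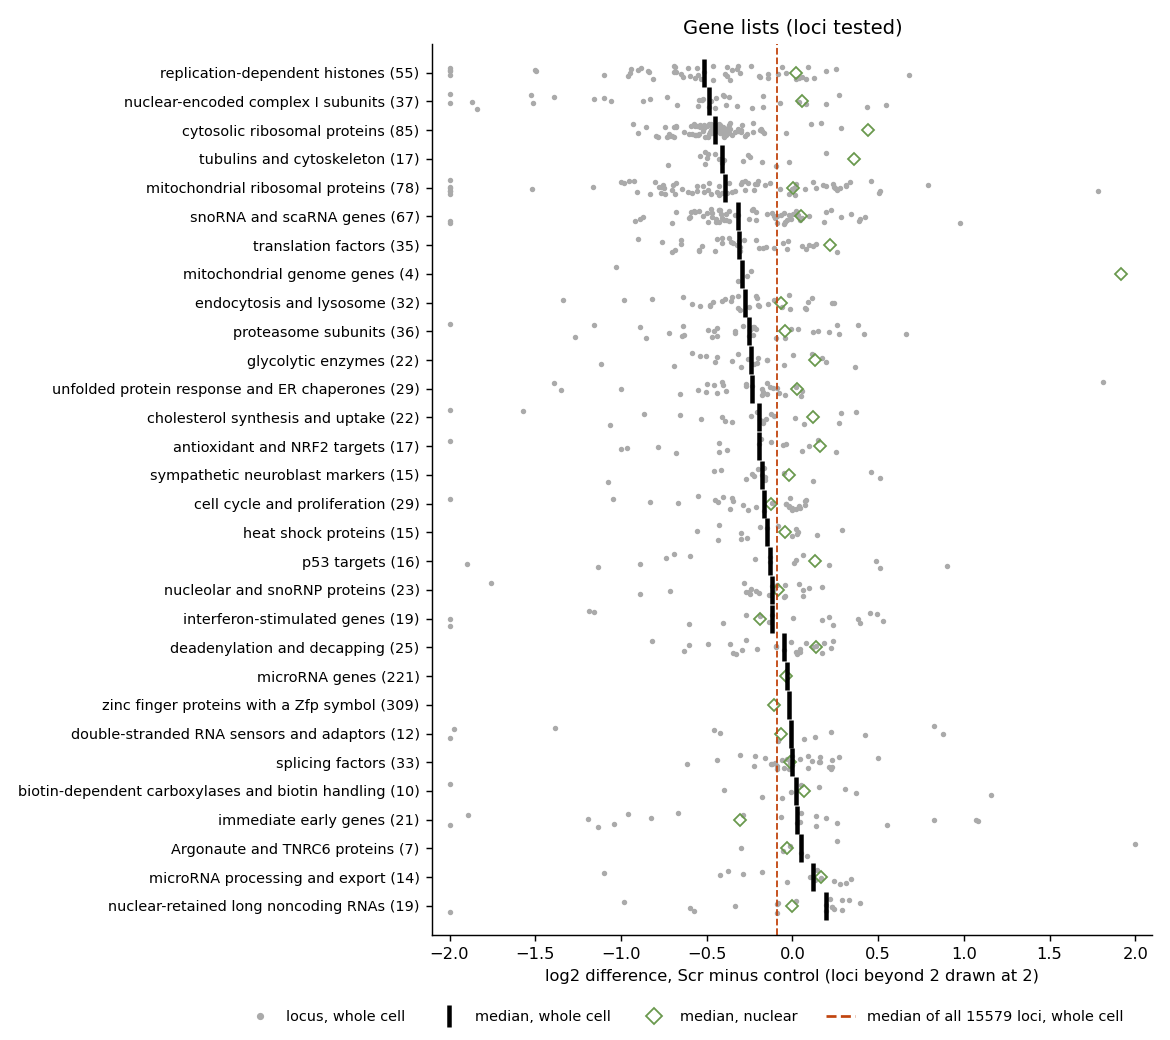
Log2 difference between Scr and control for the tested members of the gene lists (grey points, not drawn for the 2 longest lists), with the median in whole cell lysates (black bar), the median in nuclear lysates (green diamond) and the whole cell median of all tested loci (dashed line). Cytosolic ribosomal protein genes lie at -0.45 in whole cell and 0.44 in nuclear lysates, and nuclear-retained long noncoding RNAs at 0.20 and 0.00.

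The order of these lists raised the question whether the whole cell difference followed where a transcript is found in the cell. A nuclear to whole cell ratio was taken for each locus from the 6 samples given the miR-92b mimic, none of which entered the Scr or control means. Over the 5847 loci with a mean of at least 200, the log2 difference between whole cell Scr and control correlated with that log2 ratio at a Pearson r of 0.49 and a Spearman rho of 0.49. Over the 1295 loci with a mean of at least 1000, r was 0.73, and over the 10571 loci with a mean of at least 50 it was 0.22. These are correlations across loci that share the same libraries, and loci are not independent replicates. With whole cell miR-92b sample 3 left out of the ratio, because it stood apart from the other 2, r was 0.43 over the 5847 loci, and with each of the 6 compared samples left out in turn it ran from 0.40 to 0.49.

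Divided into 5 bins of equal size by that ratio, the 1170 loci with the lowest nuclear share had a median log2 difference of -0.26 and the 1170 with the highest a median of 0.17, with -0.08, -0.00 and 0.06 in the bins between. In the lowest bin 12 loci (1.03%) were higher and 268 (22.9%) lower in all 3 Scr samples, and in the highest bin 226 (19.3%) were higher and 16 (1.37%) lower. Of 79 cytosolic ribosomal protein loci at this abundance, 76 were in the lowest bin. With ribosomal protein, translation factor and complex I loci left out, r over the remaining 5699 loci was 0.46, so the relation was not carried by those lists alone.

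Per library, the median log2 level of the highest bin minus that of the lowest bin was -0.04, -0.08 and -0.17 in the Scr samples and -0.51, -0.47 and -0.53 in the control samples. The means were -0.10 ± 0.06 (SD, n = 3) and -0.50 ± 0.03 (SD, n = 3), 0.41 apart, and the ranges did not overlap. All 3 Scr samples therefore held relatively more of the transcripts with a high nuclear share. The same value was 1.03 to 1.21 in nuclear Scr and 1.19 to 1.43 in nuclear control samples, so every whole cell Scr sample lay below every nuclear sample of these groups. In whole cell samples given miR-92b it was -0.18, -0.20 and -1.99, though these samples also set the ratio. With sample 3 left out of the ratio they stood at -0.38, -0.46 and -1.38, while whole cell Scr ran from -0.18 to -0.10 and whole cell control from -0.51 to -0.43.

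**Figure D5:**
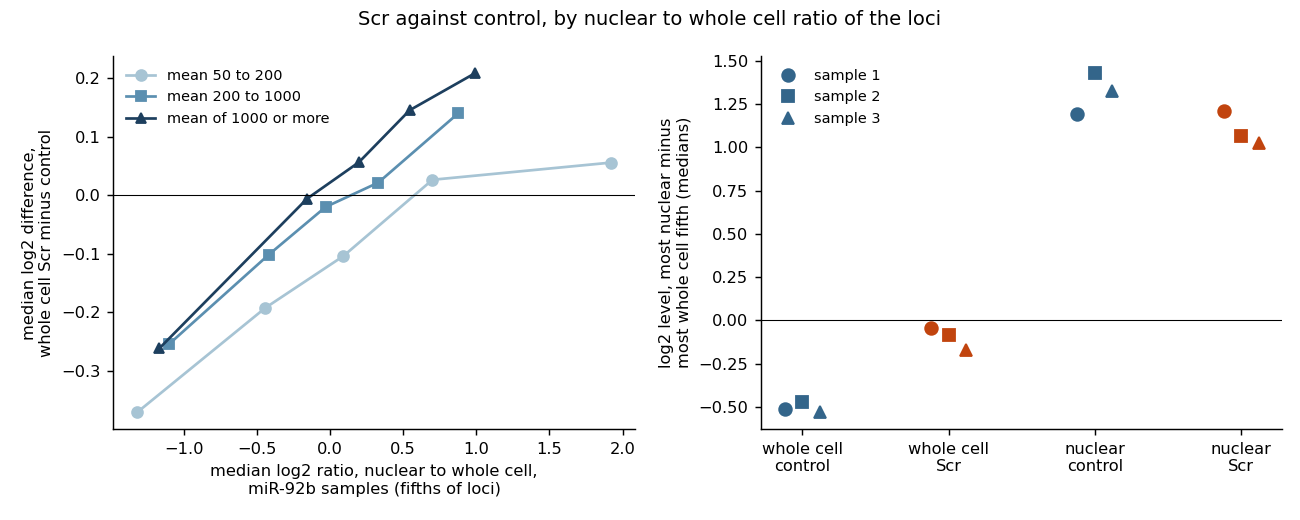
Left, median log2 difference between whole cell Scr and control in 5 bins of the log2 nuclear to whole cell ratio of the miR-92b samples, drawn for 3 ranges of mean normalized count. Right, median log2 level of the highest bin minus the lowest in each library for loci with a mean of at least 200, where the 3 whole cell Scr libraries, at -0.17 to -0.04, lie above the 3 whole cell control libraries, at -0.53 to -0.47.

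Exonic length and gene type moved with the same difference. Exonic length was counted over the exons of all annotated transcripts of a gene, so it can exceed the length of any single transcript. Among protein-coding loci with a mean of at least 200, the median log2 difference was -0.17 in the bin of 5 with the shortest exonic length (median 2744 nucleotides), and 0.06 in the bin with the longest (median 12455 nucleotides), with -0.08, -0.02 and -0.01 between. Of 913 loci each, the shortest bin had 38 higher and 165 lower without overlap, and the longest 94 higher and 22 lower. Over all tested loci 5.78% were higher and 7.71% lower. The median log2 ratio of nuclear to whole cell level also went from -0.47 to 0.24 over these bins, so length and nuclear share cannot be told apart by them. By type, 2630 long noncoding loci had 7.49% higher and 4.45% lower, 506 pseudogene loci 8.70% and 3.56%, and 10575 protein-coding loci 4.92% and 8.64%. The part of length in the difference was not tested.

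Nuclear lysates offered the same comparison in other libraries. limma called 0 of 15579 loci (0.0%) between nuclear Scr and nuclear control, with 916 at an unadjusted p below 0.05. The groups did not overlap at 1349 of the 15579 loci (8.66%), 583 higher and 766 lower in nuclear Scr. Of the 2101 loci apart in whole cell lysates, 3.24% were apart in the same direction in nuclear lysates, 21 higher and 47 lower, which was 5.04% of the nuclear set. A further 44 loci were higher in whole cell and lower in nuclear Scr, and 61 were the reverse. Whether these overlaps differ from what the sizes of both sets alone would give was not tested. Across the 15579 loci the Pearson r between both differences was 0.02, and across the 5847 loci with a mean of at least 200 it was -0.18.

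The test of whether the Scr difference itself differed between lysates called 0 loci with limma (0.0%), with 823 at an unadjusted p below 0.05 and a smallest adjusted p of 0.886. edgeR called 0 (0.0%), and DESeq2 called 8 of 15561 (0.0514%), among them Zfp51, Col26a1 and, named after their values were seen, Sertad1 and Rab8b. Zfp51, at 0 in whole cell Scr, was at 53.3, 61.0 and 30.3 in nuclear Scr and 18.8, 22.9 and 0 in nuclear control, so it was lower in one lysate and higher in the other. Cytosolic ribosomal protein genes had a median log2 difference of 0.44 in nuclear lysates against -0.45 in whole cell lysates. Rplp0 was at 452, 1732 and 1533 in nuclear Scr and 310, 411 and 805 in nuclear control, a log2 difference of 1.18. The locus of the elongation factor Eef1a1 was at 1969.9, 5143 and 7098 against 1576, 1459 and 2789 in nuclear lysates, a log2 difference of 1.16. In whole cell lysates it was at 22404, 20959 and 32397 in Scr and 35328, 26904 and 39851 in control, a log2 difference of -0.44. Nuclear Scr samples 2 and 3 were high at both loci, and mitochondrial loci took 0.0514%, 0.237% and 0.485% of reads in nuclear Scr and 0.0268%, 0.0463% and 0.106% in nuclear control, with samples 2 and 3 above all control samples again. The 4 tested loci of the mitochondrial genome had a median nuclear log2 difference of 1.92. The part of this in the nuclear differences was not tested.

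Several of the scarce loci that were missing from whole cell Scr were read in the other Scr or mimic samples. Setd4 was at 65.5, 21.9 and 3.78 normalized counts in nuclear Scr and 47.7, 74.3 and 56.7 in whole cell samples given miR-92b. Col26a1 was at 32.0, 43.7 and 59.3 in nuclear Scr and at 7.20, 0 and 17.8 in whole cell miR-92b samples. Zcchc7, higher in whole cell Scr than in control, was at 1126, 917 and 797 in whole cell miR-92b samples, which overlaps the control range and stays below all 3 Scr samples.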

How the data were processed

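Sequencing reads of the 18 samples were processed by the authors, per the labels and the study's methods, with bcl2fastq 2.17, Trimmomatic 0.30, TopHat2 and Cufflinks on the mouse build GRCm38/mm10. For TopHat2, Cufflinks and the annotation, no version or release is stated in any source used here. The deposited count table holds normalized counts per locus, a signal made by the authors by dividing reads by 1 size factor per sample. Whole reads were recovered from it, since 100% of the 635205 values above 0 were whole within 0.02 reads. The deposited FPKM table, made by the authors with Cufflinks, was used as an alternative with a pseudocount of 0.1. Deposited tables of the authors' own comparisons, which hold fold changes with p-values and q-values, were not used. Depth, counted as reads on loci with a symbol, ran from 5073238 to 22920038 in the 6 compared samples, and the 8.06% to 11.3% of reads on the 115957 loci without a symbol stayed out of the tests.

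The main test was limma 3.58.1 in R 4.3.3, fitted with a mean-variance trend to log2(value + 1) of the normalized counts, so log2 differences understate changes of scarce loci. All 18 samples entered 1 model with 6 groups, and loci with a symbol and a mean of at least 10 were tested two-sided with Benjamini-Hochberg adjustment at 0.05. edgeR 4.0.16 and DESeq2 1.42.0 were run on the recovered reads. Single values per sample were compared with two-sided exact permutation tests in SciPy 1.17.1. The main test's p-values and intervals rest on the spread within the 6 groups of all 18 samples. The labels do not say that samples of a group came from separate cultures, so that spread may be technical. At an unadjusted p below 0.05 limma had 793 loci in that model and 495 with the 9 whole cell samples. With the 6 compared samples alone it had 1182, with a smallest adjusted p of 0.241. Replicate libraries differed by more than sampling noise, so none was counted once for 2. The test script was checked on simulated counts. Loci named by rule were the 12 per direction with the smallest unadjusted p among those whose groups did not overlap, since none passed, and 1 or more of the 3 most-read members of a gene list. Some loci that these rules chose, 1 of the 24 among them, are not reported here. Which of those 3 are printed, and any locus marked as such, was chosen after values were seen. The samples compared and the 34 gene lists were chosen with earlier results of these data known. Locus types and exonic lengths came from GENCODE M21, which 96.3% of 14382 loci with a single symbol matched. Alternatives covered the pseudocount, the minimum mean, scaling, samples in the model, sample weights, the replicate number as a block, FPKM, edgeR, DESeq2 and leaving out each sample. The nuclear to whole cell ratio, the counts of groups that do not overlap under other settings, and the block within the 6 samples were added after seeing the data. Over all tested loci weighed equally, same-numbered samples of the groups did not deviate together (correlations of 0.01, 0.01 and 0.02), so the main test did not pair samples by number. Some abundant loci, such as Rplp0, Eef2 and Acaca, ranked the samples in the same order in both groups, while Canx ranked them in reverse. Pairing by number was therefore not settled.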

Additional observations from a re-analysis of the deposited data

Results flagged for a closer look

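Reads on loci without a symbol, which no comparison of named genes used, took a larger share in whole cell Scr than in whole cell control, by 2.47 percentage points. The Scr samples stood at 10.4% to 11.3% and the control samples at 8.06% to 8.45%, and the nuclear samples ranged from 9.96% to 15.3%.

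The median level of the glycolytic enzymes, taken over the list in each library, moved in opposite directions in both lysates. It was lower in each whole cell Scr sample and higher in each nuclear Scr sample than in any control sample of that lysate. The whole cell effect was 0.66 below the nuclear one on the log2 scale (-0.66), a difference that was not tested. The median of the members' log2 differences, as used for the lists above, was -0.24 in whole cell and 0.13 in nuclear lysates. By that measure other lists also went opposite ways, such as cytosolic ribosomal proteins (-0.45 and 0.44) and tubulin and cytoskeleton genes (-0.41 and 0.36).

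At the Gm44188 locus that was read in whole cell Scr and not in whole cell control, the whole cell effect exceeded the nuclear one by 7.59 on the log2 scale, and at Zfp51 the whole cell effect was below the nuclear one (-7.34). For both, limma's test of that difference gave an adjusted p of 0.886, while DESeq2 called both. Fitted values for loci at 0 in a whole group depend on the pseudocount.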

How the results depend on the processing

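The count of 0 loci called between whole cell Scr and control held under every alternative run except these: 1 without a filter on low values (Cox7a1, at 0 in all Scr samples and 14.1, 19.0 and 13.3 in control), 37 with DESeq2, 4 with the replicate number as a block within the 6 compared samples alone (Rpl41, Rpl8, Rmrp and Rpl28, all lower in Scr), and 0 to 12 with single samples left out. The 12 came without Scr sample 2, were all lower in Scr, and 6 of them were at 0 in both remaining Scr samples. With the replicate block in the 18-sample fit 0 loci were called. The test of the difference between lysates gave 8 calls with DESeq2 and 0 in every other fit, single samples left out included. The count of 2101 loci whose groups do not overlap became 1965 to 2145 under other scalings and FPKM, and 3288 to 4175 with single samples left out, where fewer samples have to separate.

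Of 53 loci whose values are printed, 47 kept their direction under all alternatives. The Ago2 and Ptk2 locus stood at 0.0011 with equal medians, and FPKM turned Adar to -0.53, Eif2ak2 to -0.15 and H2-D1 to 0.065. Acaca stood at 0.10 with sample weights, 0.024 with edgeR and 0.038 with DESeq2, and from -0.47 to 0.25 with single samples left out. Ddx58 stood at 0.095 with a pseudocount of 8, 0.66 after quantile normalization, 0.39 with sample weights, 0.93 with edgeR and 0.94 with DESeq2, and from -2.28 to 0.51 with single samples left out. The difference in the share of the 10 most-read loci ran from -0.65 to 0.086 points with single samples left out. The cause of these turns was not tested. At the median standard error, the spread between libraries limited loci with a mean of 10 to 50 to differences beyond a factor of 8.59.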
